A study of Mus musculus with 14 samples.

Results

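The genes examined encode 5 proteins that hold back the transcription factor RUNX2 (Hdac4, Twist1, Twist2, Zfp521 and Trps1) and 5 members of the Groucho/TLE corepressor family (Tle1, Tle2, Tle3, Tle4 and Tle5). They were chosen by name, as 10 of 21887 protein-coding genes on assembled chromosomes, and a peak was assigned to a gene when it overlapped the gene's span extended by 5 kb on either side. The peaks came from chromatin immunoprecipitation with sequencing in ATDC5 cells, a mouse teratocarcinoma-derived line that differentiates along the chondrocyte lineage. On days 0, 3 and 10 of differentiation in dense droplets with β-glycerophosphate and ascorbate-2-phosphate, fixed chromatin was enriched for H3K4me3, the trimethylated histone found at active and poised promoters, or for RUNX2, and 2 peak lists per antibody and day were deposited. The labels give no sign of separate cultures behind the lists of 1 day, so their spread may be technical only, and all cells are of 1 line. In such bulk chromatin, more cells with a mark and more of the mark per cell cannot be told apart.

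RUNX2 drives the maturation of chondrocytes towards hypertrophy and is required for osteoblast formation. In mice, the deacetylase HDAC4 binds RUNX2 and restrains hypertrophy, the bHLH proteins TWIST1 and TWIST2 bind its DNA-binding runt domain, and the zinc-finger proteins ZFP521 and TRPS1 act as RUNX2 antagonists. The proteins TLE1 to TLE4 do not bind DNA themselves: they are recruited by the C-terminal tail of RUNX proteins, among other factors, and repress transcription there.

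The 2 RUNX2 lists of day 3 did not behave as independent libraries. Of the list 1 summits with a list 2 summit within 500 bp, 56.5% lay on the identical base, against 0.153 to 0.767% in the 27 other pairs of lists with at least 1000 such summits, a set that left out pairs of 2 RUNX2 lists. The number of fragments stacked at a summit, recovered from the deposited fold enrichment and p-value, was equal in all 8992 peaks with the same summit, against 16 of 1320 in those other pairs. The caller's local background was equal in only 54 of the 8992. The pair was therefore counted as 1 sample with 2 backgrounds, and every RUNX2 value of day 3 below is unreplicated, so the difference between its lists is not a replicate error. The H3K4me3 lists held 13765 to 29022 peaks, the RUNX2 lists of day 3 held 19319 and 16859, and those of days 0 and 10 held 97 to 108. H3K4me3 library 1 had fewer peaks than library 2 on day 0 and on day 10, which bears on every comparison with those days. Of 7 chondrocyte markers, 4, 6 and 6 had an H3K4me3 peak in both libraries on days 0, 3 and 10, against 1, 3 and 2 of 18 markers of other cell types. Over all protein-coding genes the shares were 54.8%, 64.3% and 59.4%, so the 4 of 7 on day 0 was near the share of all genes.

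The sequences just upstream of 4 starts show where the RUNX2 regions of day 3 began and ended relative to these genes. Each line gives the 250 bases before an annotated start, 5′ to 3′ along the gene, from RefSeq on GRCm38.p6. Capitals mark bases inside a region found in both RUNX2 lists of day 3. The promoters are those of Twist2 (chr1:91801211-91801460, plus strand), where every base lay inside, Hdac4 (chr1:92180342-92180591, minus strand), with 53 bases inside, Tle2 (chr10:81575037-81575286, plus strand), with 50, and the first start of Tle4 (chr19:14598184-14598433, minus strand), with 0.
Twist2: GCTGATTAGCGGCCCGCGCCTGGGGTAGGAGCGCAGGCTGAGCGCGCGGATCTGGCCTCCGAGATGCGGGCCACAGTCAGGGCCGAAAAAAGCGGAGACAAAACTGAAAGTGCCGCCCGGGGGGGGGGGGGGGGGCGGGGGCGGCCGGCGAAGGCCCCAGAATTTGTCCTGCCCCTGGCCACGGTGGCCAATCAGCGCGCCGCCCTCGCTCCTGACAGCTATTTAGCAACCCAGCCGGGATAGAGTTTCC
Hdac4: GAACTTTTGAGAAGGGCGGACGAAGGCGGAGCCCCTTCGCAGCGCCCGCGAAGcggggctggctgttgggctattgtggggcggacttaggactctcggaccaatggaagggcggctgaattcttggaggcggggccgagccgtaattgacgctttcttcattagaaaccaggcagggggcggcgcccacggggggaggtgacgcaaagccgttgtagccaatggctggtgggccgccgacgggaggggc
Tle2: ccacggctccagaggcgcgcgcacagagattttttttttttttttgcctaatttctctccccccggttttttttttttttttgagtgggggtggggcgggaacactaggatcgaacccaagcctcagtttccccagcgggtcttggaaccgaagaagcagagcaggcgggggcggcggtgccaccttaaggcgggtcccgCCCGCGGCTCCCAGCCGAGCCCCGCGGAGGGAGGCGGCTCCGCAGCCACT
Tle4: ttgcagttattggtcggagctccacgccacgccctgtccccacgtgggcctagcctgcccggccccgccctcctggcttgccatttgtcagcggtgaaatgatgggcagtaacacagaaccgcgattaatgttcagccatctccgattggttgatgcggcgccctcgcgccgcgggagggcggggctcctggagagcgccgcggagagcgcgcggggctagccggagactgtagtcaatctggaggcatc

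These promoters were rich in G and C. Over the 8 promoters of the 7 genes with an entry (Hdac4, Twist1, Twist2, Tle1, Tle2, Tle3 and Tle4), each of 300 bases, the median GC content was 65.5% (range 53.7 to 73.7%), against 52.7% for all 32851 promoters of the table. Their median observed-to-expected CpG ratio was 0.934, against 0.384 for all promoters. The RUNX motif, searched as TGTGGT or TGCGGT on both strands, was in 0 of the 8 promoters, against 22.4% of all promoters. That says only that these letters are not in these windows. Among all promoters, 20.4% of those overlapping a RUNX2 region of day 3 held the motif, against 23.5% of those overlapping none. The CCAAT box, searched as CCAAT on both strands, was in 5 of the 8 (Hdac4, Twist1, Twist2, Tle3 and a start of Tle4), against 37.4% of all. The GC box, GGGCGG on both strands, was in 7 of the 8, against 35.7% of all. Both boxes were chosen after the sequences had been seen.

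All 10 genes carried H3K4me3 throughout, counting peaks in the span extended by 5 kb. Each had a peak in both libraries on day 0, on day 3 and on day 10, against 54.8%, 64.3% and 59.4% of all protein-coding genes on those days. At Tle2 the day 0 call rested on the extension, since its only peak in library 1 lay outside the span. With windows of 1 kb around starts and span ends, Zfp521 and Tle2 were not called on day 0. A peak in all 6 lists was likewise found at 10 of 10 genes, against 54.5% of all genes and 64% of genes at least 100 kb long, so that marking by itself was common. None of the 10 gained or lost H3K4me3 by day 3 relative to day 0, where a gain is a peak in both later and neither earlier library. All genes gave 3.23% gained and 0.00914% lost in that comparison. None gained or lost a peak by day 10 relative to day 3 (0.0457% and 0.576% of all genes) or relative to day 0 (1.11% and 0.00914%).

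What varied was the number of bases under the peaks. In both day 3 libraries the covered length exceeded that in both day 0 libraries at 9 of 10 genes, all but Tle4, against 73.7% of genes with a peak in any H3K4me3 list and 81.1% of those marked in all 6 lists. It was below at 0 of 10, against 0.0704%. The median ratio of day 3 to day 0 was 1.69 over the 10 genes and 1.46 over all genes marked in all 6 lists. The size of the ratio rested on the library: in library 1 alone it was 2.67 and 1.82, and in library 2 alone 1.16 and 1.17. The lists as a whole covered 1.78 times as many bases on day 3. Expressed as a share of all bases covered in its list, the length was above day 0 on day 3 at 2 of 10 genes, Zfp521 and Trps1 (16.1% of genes with a peak, 8.98% of those marked in all 6 lists), and below at 4, Tle1, Tle3, Tle4 and Tle5 (40.1%). On day 10, the covered length in both libraries was above day 3 at 0 of 10 genes (0.429%) and below day 0 at 0 of 10 (0.288%). No direction between day 10 and day 3 held in both libraries for most genes: without library 1, day 10 was above day 3 at 8 of 10, and without library 2 it was below at 10 of 10. Covered length and its share were chosen as measures after the data had been seen.

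Trps1, the GATA-type zinc-finger repressor gene that is mutated in tricho-rhino-phalangeal syndrome, had the most bases under H3K4me3 peaks of the 10 genes in 5 of 6 libraries, Tle3 having more in library 1 of day 0. Its peaks covered 3091 and 10916 bp on day 0, 22275 and 18959 bp on day 3 and 10628 and 21906 bp on day 10. Both day 3 values were above both day 0 values, the lower day 10 value was below the higher day 0 value, and the mean of day 3 was 20617 ± 2345 bp against 7004 ± 5533 bp on day 0 (SD, n = 2 each), 2.94 times as long. That ratio was 7.21 in library 1 alone and 1.74 in library 2 alone. On day 3, a single peak of 21982 bp in library 1 was the third widest of 28653 in its list, and one of 11080 bp in library 2 ranked number 4 of 26781. On day 10 the widest peak, of 6737 bp in library 1 and 14721 bp in library 2, ranked number 4 of 15219 and number 3 of 29022. On day 0 the ranks were 1038 of 13765 for a peak of 1953 bp and 59 of 20863 for one of 4813 bp. Ranks describe a place within 1 list and were not compared between lists. The day 0 signal lay at both ends of the later stretch, at chr15:50887371-50889323 and chr15:50869557-50870256 in library 1, and library 2 had 11 separate peaks over the same 22370 bp region.

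Zfp521, which encodes a zinc-finger antagonist of RUNX2 in osteoblasts and chondrocytes, showed the highest ratio of the 10. Its covered length was 1237 and 8572 bp on day 0, 17550 and 12605 bp on day 3 and 3554 and 14297 bp on day 10. The day 3 values were above both day 0 values, whereas the day 0 and day 10 ranges overlapped. The mean of 15078 ± 3497 bp on day 3 was 3.07 times the 4905 ± 5187 bp of day 0 (SD, n = 2 each), a ratio at percentile 98.0 of genes marked in all 6 lists, with Trps1 at 97.5. The day 0 libraries differed from each other by more than that ratio, which was 14.2 in library 1 alone and 1.47 in library 2 alone. Of 8 separate H3K4me3 regions at Zfp521, 1, over the upper end of its span (chr18:13966747-13974192), was in all 6 lists. A further pair inside the gene, chr18:13849309-13850564 and chr18:13850744-13851396, was present in both day 3 libraries and in neither day 0 library. On day 10 library 2 had a peak in the first of the pair and library 1 had none in either.

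**Figure D1:**
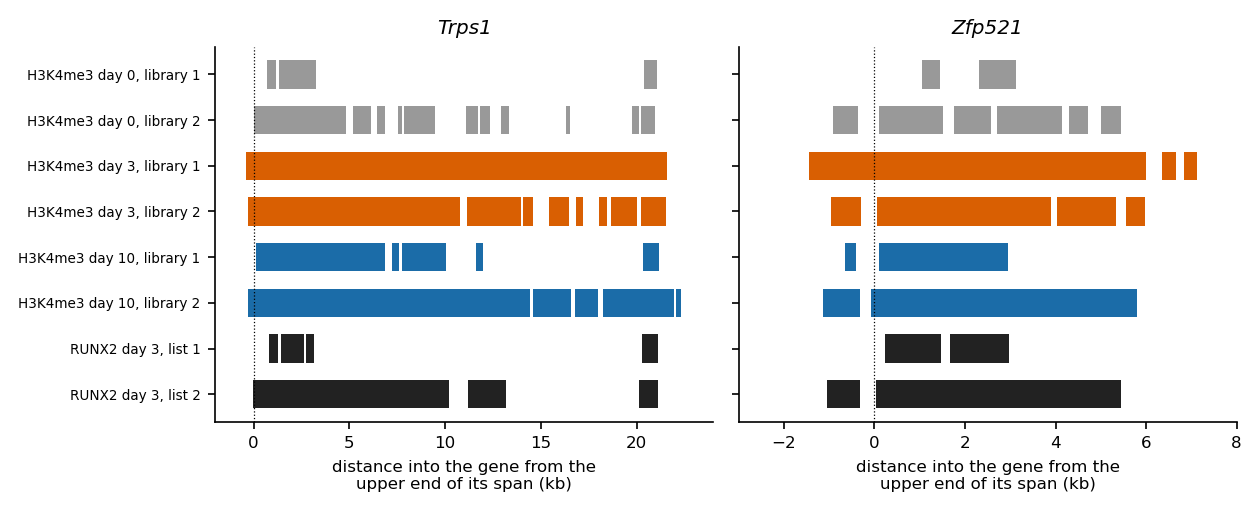
Position of peaks at Trps1 and Zfp521 in 6 H3K4me3 libraries and the 2 RUNX2 lists of day 3 (rows), by distance in kb into the gene from the end of its span with the higher coordinate. Bars are peaks drawn to scale, and for Zfp521 only the region at that end is drawn. At Trps1, library 1 had a single peak of 21982 bp on day 3, whereas day 0 had 3 peaks in library 1 and 11 in library 2.

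Twist1 and Twist2 encode bHLH proteins whose C-terminal Twist box occupies the runt domain. Twist1 peaks covered 1862 and 4920 bp on day 0, 6970 and 5296 bp on day 3 and 2816 and 5942 bp on day 10. Both day 3 values were above both day 0 values, and their mean was 1.81 times as long, although the ratio was 3.74 in library 1 alone and 1.08 in library 2 alone. Twist2 peaks covered 1686 and 1359 bp on day 0, 2071 and 1891 bp on day 3 and 1310 and 1919 bp on day 10. Its day 3 values were above both day 0 values, with a ratio of 1.30, below the 1.46 of all genes marked in every list, and its day 10 values spanned those of day 0. At either gene the H3K4me3 peaks formed 1 region, 7115 bp long at Twist1 and 2092 bp long at Twist2. Twist2 lay 80744 bp from Hdac4 on chromosome 1, and they shared no region.

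Hdac4, the class IIa deacetylase gene, had 1261 and 2176 bp covered on day 0, 4196 and 2738 bp on day 3 and 1844 and 2874 bp on day 10. The day 3 values did not overlap those of day 0 and averaged 2.02 times as much (3.33 in library 1 alone, 1.26 in library 2 alone), whereas library 2 of day 10 lay above library 2 of day 3. A second region, chr1:92195269-92196094, at the upper end of the gene span and 14928 bp from the listed start, was present in both day 3 libraries, in library 2 of day 10 and in neither day 0 library. It had no RUNX2 peak in either list. It was 1 of 4 regions, of 28 at the 10 genes, that appeared on day 3 under the same rule, against 7.36% of all regions. The others were the pair inside Zfp521 and chr10:81595929-81597594, beyond the end of Tle2 and beside Tle6. Of the 28 regions, 11 were in all 6 lists, against 26.6% of all regions.

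The TLE genes had ratios of day 3 to day 0 between 1.23 at Tle4 and 1.91 at Tle2. Tle1 peaks covered 1890 and 2380 bp on day 0, 3777 and 2966 bp on day 3 and 2875 and 3257 bp on day 10. Both day 10 values of Tle1 were above both day 0 values, as at no other of the 10 genes (20.2% of genes with a peak), and its day 3 mean was 1.58 times that of day 0. The count depended on the measure: as a share of covered bases the gene above was Trps1 and not Tle1, with stronger peaks only or equal numbers of peaks they were Trps1, Tle1 and Tle5, and leaving out either library gave 9 genes. Tle3 peaks covered 3435 and 5010 bp on day 0, 6940 and 5030 bp on day 3 and 3728 and 5999 bp on day 10. The lower day 3 value, 5030 bp, was barely above the higher day 0 value, 5010 bp, and the ratio of means was 1.42. Tle4 peaks covered 1581 and 2258 bp on day 0, 2505 and 2214 bp on day 3 and 1927 and 2115 bp on day 10. Here the days overlapped, day 3 being 1.23 times day 0 in the mean, while both day 10 values were below both day 3 values, as they also were at Tle5 (2 of 10, against 19% of genes with a peak). As a share of covered bases the 2 genes below were instead Twist1 and Zfp521, and without library 2 all 10 were below.

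Tle2 and Tle5 are neighbours on chromosome 10, with spans 8367 bp apart, and share the region chr10:81570323-81572657, next to the non-coding gene Gm31936, so that part of their signal is the same. Tle5 encodes a short protein, also called AES, that lacks the WD repeats of the other TLEs and modulates them. Its peaks covered 2199 and 2803 bp on day 0, 3855 and 2917 bp on day 3 and 2339 and 2866 bp on day 10, with a ratio of day 3 to day 0 of 1.35. Tle2 had 1145 and 2863 bp on day 0, 4549 and 3088 bp on day 3 and 1520 and 4111 bp on day 10. Day 3 was above day 0 in both libraries at both genes, but library 1 of day 0 had no peak at the Tle2 start itself, chr10:81574854-81576348, and its Tle2 value came from the shared region alone. The Tle2 ratio of day 3 to day 0, 1.91 in the means, was 3.97 in library 1 alone and 1.08 in library 2 alone. With no extension of the span, Tle2 was therefore not called on day 0.

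**Figure D2:**
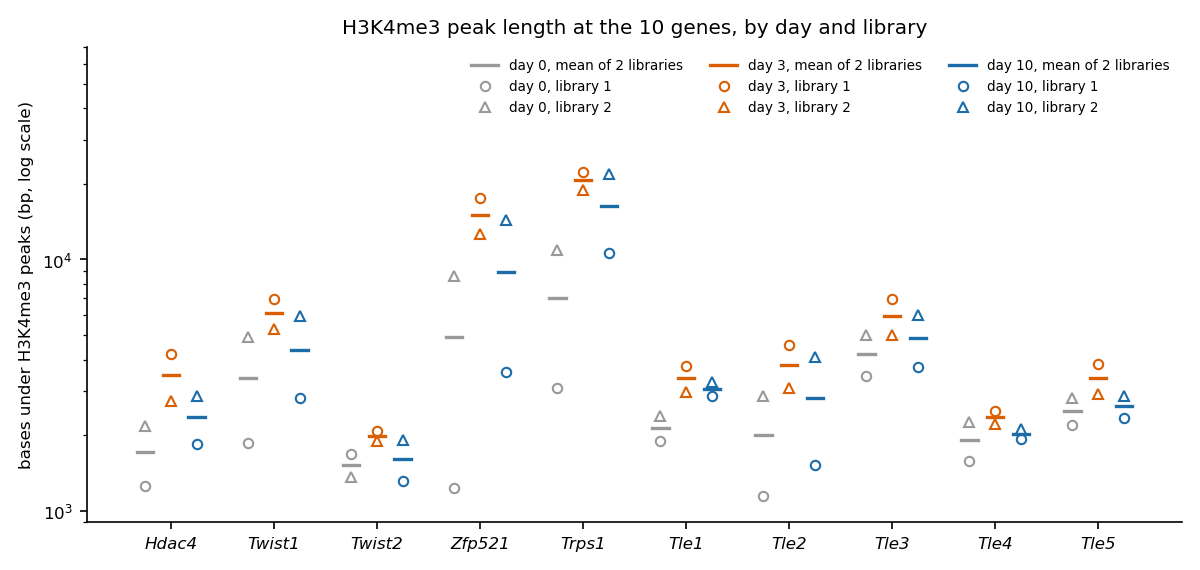
Bases under H3K4me3 peaks (bp, log scale) at each gene, with circles for library 1, triangles for library 2 and bars for the mean of 2 libraries on days 0, 3 and 10. Trps1 and Zfp521 stand above the other genes on day 3, with 18959 to 22275 bp and 12605 to 17550 bp, and the day 0 and day 10 libraries lie far apart at both.

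RUNX2 peaks were called at these genes on day 3 and on no other day. Both day 3 lists had a peak at 10 of 10 genes, against 61.1% of all genes, and each list alone gave 10 of 10, against 62.4% of all genes for list 1 and 61.3% for list 2. On day 0 and on day 10 there was a peak at 0 of 10 genes, against 0.0274% and 0.0183% of all genes, in lists of 97 to 108 peaks, and no single list of those days had one either (0.0868% of all genes). By the rule for gains, RUNX2 was therefore gained by day 3 over day 0 at 10 of 10 (61% of all genes) and lost by day 10 relative to day 3 at 10 of 10 (61%). Of the 11934 genes with H3K4me3 in all 6 lists, 11931 had RUNX2 in both day 3 lists, so RUNX2 peaks on day 3 were found at nearly every marked gene. The day 3 state rests on 1 library.

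At the strongest RUNX2 peak with a matching summit in both lists (within 2 bp), Tle3 had 96 stacked fragments over a local background of 27.8 in list 1 and 5.52 in list 2. Tle5 had 95 fragments over 14.5 and 4.49, and Trps1 had 85 over 31.7 and 6.09. The lowest stacks were at Zfp521, with 55 over 19.4 and 3.64, and at Twist1, with 56 over 17.0 and 3.20. At 17 such summits, spread over 9 of the 10 genes, the stack was equal in both lists at 17, and the background was lower in list 2 at 15. Twist2 was the gene without such a pair: the summits of its peaks lay at 91801945 and 91801928 on chromosome 1, with 65 fragments at each. The local background of list 1 was highest at Trps1, Tle3, Zfp521 and Twist1, the 4 genes with the longest H3K4me3 coverage on day 3. Whether the marking of these genes bears on that background was not tested.

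**Figure D3:**
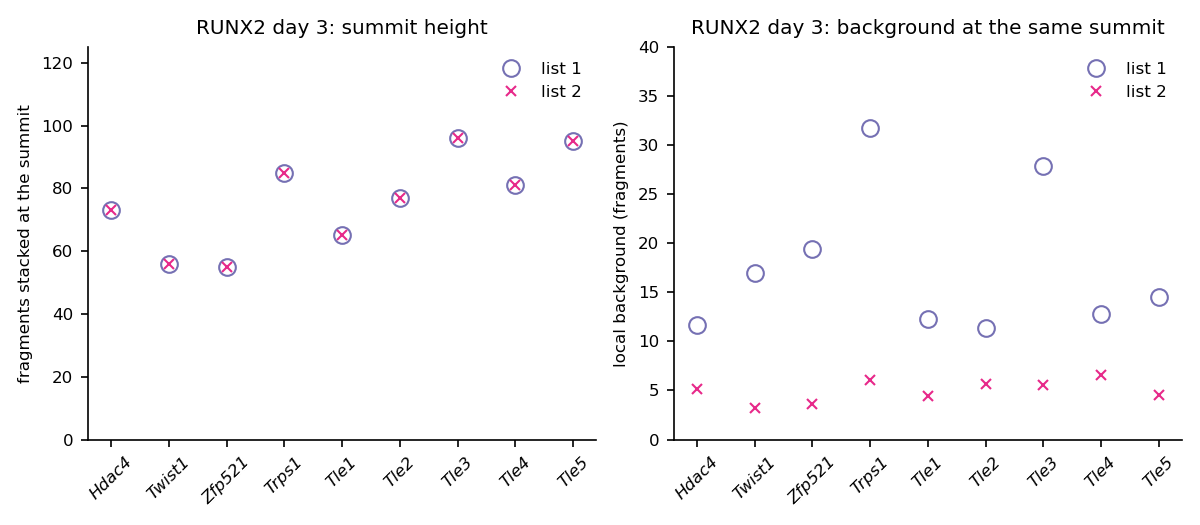
Left, fragments stacked at the strongest shared RUNX2 summit of day 3 at 9 genes, in list 1 (circles) and list 2 (crosses), and right, the caller's local background in fragments at the same summit. Heights coincide at every gene, from 55 at Zfp521 to 96 at Tle3, while backgrounds differ, at Trps1 31.7 in list 1 and 6.09 in list 2.

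The fold enrichment, which the authors' peak caller gave relative to that background, varied with it. At the most significant peak of each gene, the fold in list 1 reached 6.29 at Tle2, 6.21 at Twist2 and 6.20 at Tle5. It was lowest at Twist1 with 3.16 and Tle3 with 3.36. In list 2 the fold at that peak was 17.5 at Tle5, 14.9 at Tle3 and 13.6 at Twist1, and lowest at Tle4 with 10.8. Tle3 and Twist1, whose peak had the same stack in both lists, were thus lowest in list 1 and among the highest in list 2. At Trps1 and Zfp521 the most significant peak was a different one in each list. At their strongest shared summits the fold was lower still in list 1, 2.63 at Trps1 and 2.75 at Zfp521, against 12.1 at each in list 2. Ranked by significance within its list, Tle5 stood first of the 10 in both, in the upper 29.7% of list 1 and the upper 11.1% of list 2. Zfp521 stood last in both, at 77.7% and 54.7%. The widths differed most at the long domains: the widest RUNX2 peak at Trps1 was 10216 bp in list 2, rank 7 of 16859, and 1168 bp in list 1. RUNX2 peaks covered more bases in list 2 than in list 1 at 10 of 10 genes, against 88.8% of all genes with a peak in both.

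RUNX2 lay within the marked chromatin. Of 25 regions at the 10 genes present in both RUNX2 lists of day 3, 25 overlapped an H3K4me3 region of both day 3 libraries. The share was 97.6% over all 17401 such regions. The exact Clopper-Pearson 95% interval for the 25, 86.3 to 100%, holds counting error only. It takes the regions as independent, which regions of 1 gene are not, and all came from 1 RUNX2 sample. In bases, 99.8% of the RUNX2 coverage at the genes was inside H3K4me3, against 96.1% overall. The reverse share differed between genes. RUNX2 covered 15.2% of the H3K4me3 bases at Trps1, 38.3% at Zfp521 and 49.0% at Twist1, against 80.1% at Twist2, 78.4% at Tle4 and 68.5% over all regions. These shares need a base to be in both RUNX2 lists, and list 1, with its higher background, covered less at the genes with low shares. At Trps1 RUNX2 peaks covered 2890 bp in list 1 and 13164 bp in list 2. The values were 4940 and 10624 bp at Zfp521 and 2595 and 4764 bp at Twist1. They lay closer together at Twist2, 1497 and 1912 bp, and at Tle4, 1736 and 2202 bp. How much of the difference in share between genes came from list 1 was not tested.

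Around the start, several genes showed a break in the peaks. The annotated start of Hdac4 and the first of 2 listed starts of Tle4 lay between flanking peaks rather than under one in 5 of 6 H3K4me3 lists and in both RUNX2 lists. At the Hdac4 start the gap was 695 and 289 bp on day 0, 298 bp in library 2 of day 3 and 326 and 282 bp on day 10, and 318 and 235 bp in the RUNX2 lists. Library 1 of day 3, with the longest total coverage, had a single peak across it. Among starts with a peak of all 4 day 3 lists within 1 kb, 2.85% lay in such a gap in both RUNX2 lists. List by list, the share of starts in a gap was 0.899% and 5.38% in the H3K4me3 libraries of day 3 and 8.57% and 3.6% in the RUNX2 lists. The starts of Twist2 and Tle1 and the second start of Tle4 lay under a peak in every H3K4me3 list and in both RUNX2 lists. Twist1 was intermediate, with a gap in 3 of 6 H3K4me3 lists and 1 of 2 RUNX2 lists. So was Tle3, with a gap in 1 of 6 H3K4me3 lists and 1 of 2 RUNX2 lists. The Tle2 start lay under a peak in both RUNX2 lists and in 5 of 6 H3K4me3 lists. It had neither a peak nor a gap between flanking peaks in library 1 of day 0. The 250 bases before the first Tle4 start, printed above, lay wholly inside the break of both RUNX2 lists.

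**Figure D4:**
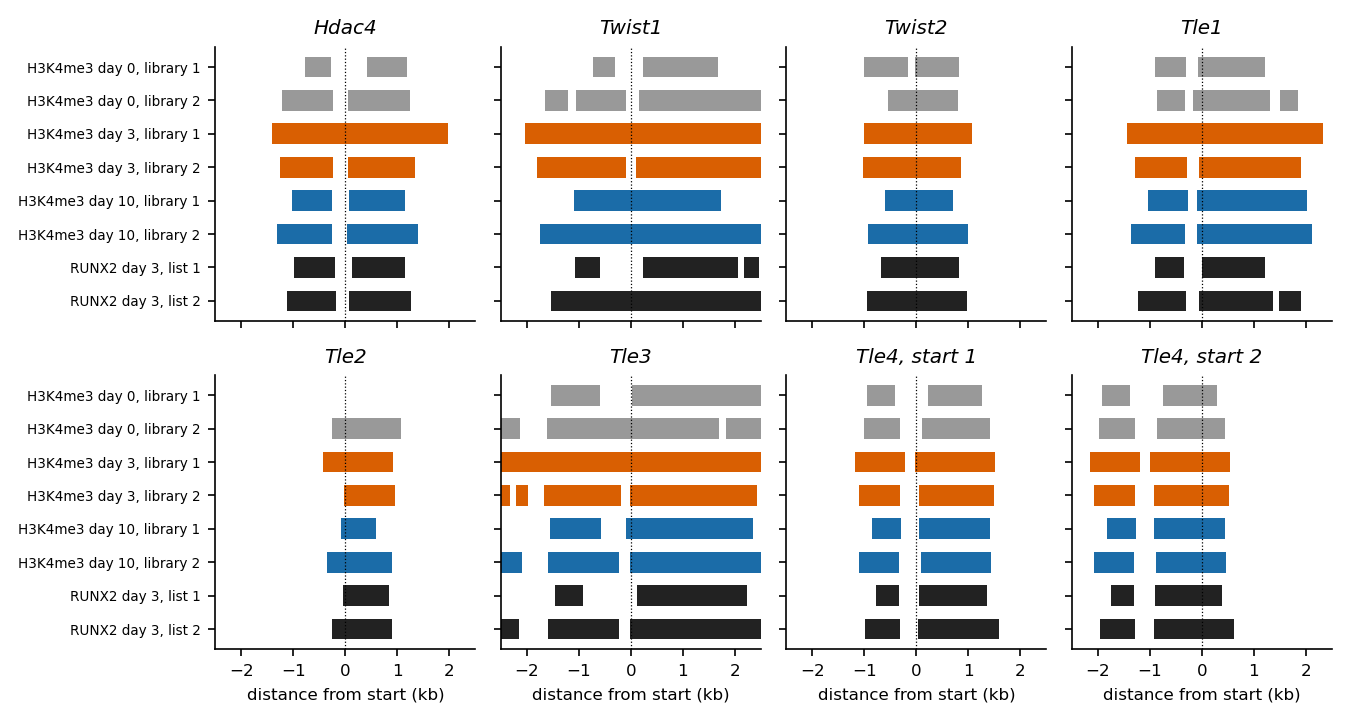
Peaks within 2.5 kb of 8 annotated starts (dotted line), oriented along the gene, in 6 H3K4me3 libraries and the 2 RUNX2 lists of day 3, drawn to scale with distance in kb. At Hdac4 and the first Tle4 start the flanking bars leave the start uncovered in 5 of 6 H3K4me3 rows and both RUNX2 rows.

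Other regulators of RUNX2 were also mostly marked. A further 30 genes were listed as regulators of RUNX2, whatever the direction of their effect. Of these, 25 had H3K4me3 in both libraries on day 0 (54.8% of all genes). The count was 30 on day 3 (64.3%) and 29 on day 10 (59.4%). With library 2 alone, 30 of 30 were marked on day 0, and the difference from the 10 genes was not tested. The 5 not called on day 0, named after their values were seen, were Hdac9 (a class IIa deacetylase like Hdac4), Zfp423 (a paralogue of Zfp521), Tle6 (a divergent TLE), Cbfa2t3 and Zbtb16. None gained or lost H3K4me3 under the rule, because each of the 5 had a peak in library 2 of day 0. None lacked it in every list. RUNX2 was called at 28 of the 30 on day 3 (61.1% of all genes), all but Cbfa2t3 and Zbtb16. It was called at 0 on days 0 and 10 (0.0274% and 0.0183%). The covered length was above day 0 on day 3 in both libraries at 26 of the 30, against 73.7% of genes with a peak. The median ratio over the 25 marked in all 6 lists was 1.61 (2.10 in library 1 alone and 1.19 in library 2 alone). Over all genes marked in all 6 lists it was 1.46 (1.82 and 1.17).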

How the data were processed

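H3K4me3 and RUNX2 were profiled in ATDC5 cells on 3 days. Of 14 samples, 12 had a peak list and were grouped by the antibody and day in their titles; the 2 inputs had no list analysed here. The submitters' processing notes list MACS2 and HISAT2 2.2.0 beside FastQC and Trim Galore. Settings, and which control went with which library, are not stated in the labels used. Per the column order of the deposited narrowPeak lists, each peak has a position and summit, a score, the fold enrichment as a linear ratio, and −log10 values for p and q, all as the authors' caller gave them. Peaks were called per list, and read numbers are not given.

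The notes name GRCm39, but 38.4 to 70.7% of H3K4me3 summits lay within 1 kb of a start in the RefSeq table of GRCm38, against 3.64 to 4.26% after a 20 kb shift, so coordinates were read as GRCm38 and count from 1. A gene was called when both lists of a day overlapped its span, extended by 5 kb, by at least 1 bp. Covered length is the number of merged peak bases in that window. No test was made, since an exact permutation of 2 against 2 libraries cannot go below p = 0.333. Each count is set beside the same count over all 21887 genes.

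The stack of fragments at a summit was solved as the whole number whose Poisson p-value over the background implied by the fold, with 1 added to both terms, matched the deposited −log10 p within 0.01. This succeeded for every peak of the 12 lists, and the solver and interval code were checked on simulated data. Because the RUNX2 lists of day 3 shared their stacks, they count as 1 sample.

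The 10 genes are always named. Of the 30 other regulators, those with no H3K4me3 peak in any list were to be named, and those that gained or lost a peak, which for RUNX2 were 28 and are given as a count. A rule to name genes with a similar H3K4me3 pattern applied to no gene, since no call differed between days. The genes and lists were chosen with earlier results of these data known. RefSeq promoters matched 7 of the 10 genes; those of Zfp521, Trps1 and Tle5 were not used here. Alternatives covered window, peak threshold, overlap, number of libraries and left-out libraries. Python 3.11.15, numpy 2.4.6, pandas 2.3.3, scipy 1.17.1 and matplotlib 3.10.9 were used.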

Additional observations from a re-analysis of the deposited data

How the results depend on the processing

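Over 32 results, 270 alternatives were run, of which 257 left the count within 1.5 times its value and 13 moved it. The calls of H3K4me3 and RUNX2 at the 10 genes did not move by over 1.5 times under any of them. On day 0, Tle2 was not called without the extension of its span, and Zfp521 and Tle2 were not called with windows of 1 kb around starts and span ends. These counts, 9 and 8 in place of 10, were within 1.5 times and so were not scored as moved. A count of 10 of 10 cannot rise. H3K4me3 gains and losses of 0 also had little room to move, since all 10 genes had a peak in all 6 lists. RUNX2 counts of 0 on days 0 and 10 rested on lists of 97 to 108 peaks and had little room to move. The results that moved were all counts of genes by H3K4me3 covered length, a measure and set of alternatives chosen after seeing the data. As a share of the bases covered in each list, 2 genes were above and 4 below on day 3 relative to day 0, and 1 (Tle3) was below on day 10 relative to day 0. The genes named changed as well: Trps1 in place of Tle1 was above on day 10 relative to day 0, and Twist1 and Zfp521 in place of Tle4 and Tle5 were below on day 10 relative to day 3. With peaks of −log10 q of at least 5, or with equal numbers of top peaks, 3 genes (Trps1, Tle1 and Tle5) were above on day 10 relative to day 0 in place of 1. With the span extended by 20 kb, 1 gene in place of 2 was below on day 10 relative to day 3. The genes above on day 3 relative to day 0 also changed, without moving their count by over 1.5 times. With no extension of the span 7 were above, Tle2 and Tle3 no longer among them, and with 20 kb 10 were. With equal numbers of top peaks, Tle4 was above in place of Tle3.

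Leaving out replicate 1 or replicate 2 gave 9 to 10 genes above and 0 to 1 below on day 3 relative to day 0. It gave 0 to 8 above and 2 to 10 below on day 10 relative to day 3, and 9 above and 1 below on day 10 relative to day 0 in either case. Without library 1, 8 genes were above on day 10 relative to day 3, and without library 2, 10 were below, so the direction between these days rested on which library was used. The cause was not tested. Leaving out either RUNX2 list of day 3 removes no independent library. No paired analysis was possible because no result comes from a test and the labels do not say what a shared number marks. Read numbers are unknown, so an uncalled peak was not detectable at its list's depth and background.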

Other observations

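Of the small RUNX2 lists, 58 of 108 and 55 of 102 peaks on day 0 and 49 of 101 and 51 of 97 on day 10 overlapped a RUNX2 region of day 3. None lay at the 10 genes, and 19 protein-coding genes, 0.0868% of all, had such a peak in any list of day 0 or day 10. Their median local background was 52.2 to 80.5 fragments, against 8.89 and 5.94 in the RUNX2 lists of day 3 and 1.32 to 4.18 in the H3K4me3 lists.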
